A study of Mus musculus with 3 samples.

Results

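The genes described here are those of eukaryotic translation initiation: the initiation factors (eIFs), the kinases that phosphorylate eIF2 and the proteins that bind eIF4E. They were chosen by name, as every gene whose only annotation symbol begins with Eif, and number 49 of the 18820 genes with a probe set of their own, covered by 60 of 21218 probe sets. Cultures of the mouse macrophage line RAW264.7 were given for 6 hours 500 µM of 1 fatty acid carried on albumin that had been freed of fatty acids, at 2 fatty acid molecules per albumin. The groups were oleate and elaidate, the cis and the trans form of the same monounsaturated fatty acid, and palmitate, which is saturated and of shorter chain, so all groups share the albumin carrier. Each fatty acid gave 1 whole-transcript array, and the 3 arrays form 3 pairwise comparisons at matched dose and time. There is no second array of any fatty acid and no array of cells without fatty acid is used here. Each difference is therefore between 2 arrays, carries no error and no test, and describes these arrays only. In bulk RNA such as this, fewer cells of a type and less RNA per cell cannot be told apart.

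Translation starts when eIF2, loaded with GTP and the initiator tRNA, joins the small ribosomal subunit together with eIF1, eIF1A, eIF5 and the large eIF3 complex. The mRNA is recruited through its cap by eIF4F, made of the cap-binding protein eIF4E, the scaffold eIF4G and the helicase eIF4A. Initiation is slowed when kinases phosphorylate eIF2, which then blocks its exchange factor eIF2B and starts the integrated stress response. It is also slowed when the kinase complex mTORC1 is inactive, since dephosphorylated 4E-BPs then keep eIF4E from eIF4G. Much of this control acts on proteins by phosphorylation, which an RNA array does not measure.

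All values are log2 expression values as deposited, and a gene with several probe sets has their mean. Genes with a 3-array mean of at least 4.14, the median over genes, were kept for counting. This left 9410 genes in all and 46 of the 49 initiation genes. The 3 that did not pass were Eif2s3y at 2.03, Eif4e1b at 3.67 and Eif5a2 at 2.99, each with the same value on every array. A gene was called different at 2-fold, a log2 difference of 1, and also at a lower limit of 1.5-fold, a log2 difference of 0.58. Of the 10 macrophage markers 9 passed the filter, with Cd68 at 11.77 and the transcription factor gene Spi1 at 11.28 on the oleate array, and Mrc1 at 2.71 did not. None of the 4 lymphocyte markers measured passed, and Col1a1, Krt8 and Alb were the markers of other cell types that did, at 4.18, 4.33 and 5.03 on the oleate array. The log2 values of the macrophage markers summed to 95.7 on the oleate, 94.9 on the elaidate and 92.7 on the palmitate array. This sum is no amount of RNA. Cd68, Ptprc and Mrc1 were equal on all arrays. The other macrophage markers were lower on palmitate than on oleate, least for Spi1 (11.18 beside 11.28) and most for Lyz2 (10.83 beside 11.66). The part of these marker values in the differences below was not tested.

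Most initiation genes had nearly the same value on the 3 arrays, and the largest differences lay between palmitate and oleate. There, 1 of the 46 genes, Eif4ebp1, was at least 2-fold higher on the palmitate array and none was 2-fold lower, beside 1.65% and 1.22% of all genes past the filter. At 1.5-fold, 2 were higher (4.35% of the 46, beside 4.57% of all genes) and 1 was lower (2.17%, beside 4.73%). The median difference was 0.00 over the 46 genes and 0.00 over all 9410 genes. Of the 46, 17 (37.0%) were higher, 17 (37.0%) lower and 12 (26.1%) equal, beside 30.9%, 36.8% and 32.3% of all genes. For palmitate minus elaidate, Eif4ebp1 was again the 1 gene past 2-fold and past 1.5-fold, higher on palmitate, beside 0.978% of all genes at 2-fold and 3.18% at 1.5-fold. None was lower by either limit, beside 0.871% and 4.43%. For elaidate minus oleate no initiation gene reached 1.5-fold; 0.723% of all genes were higher by that limit, 0.0638% were lower, and 0.106% were 2-fold higher. The share of initiation genes called was thus at or below that of all genes in each comparison, except at 2-fold higher on palmitate in both comparisons with that array, where the count is 1 gene. With the probe set of highest mean in place of the mean, 3 of 46 (6.52%) were at least 1.5-fold higher on palmitate than on oleate, beside 4.67% of all genes in that setting, the third being Eif2s2.

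**Figure D1:**
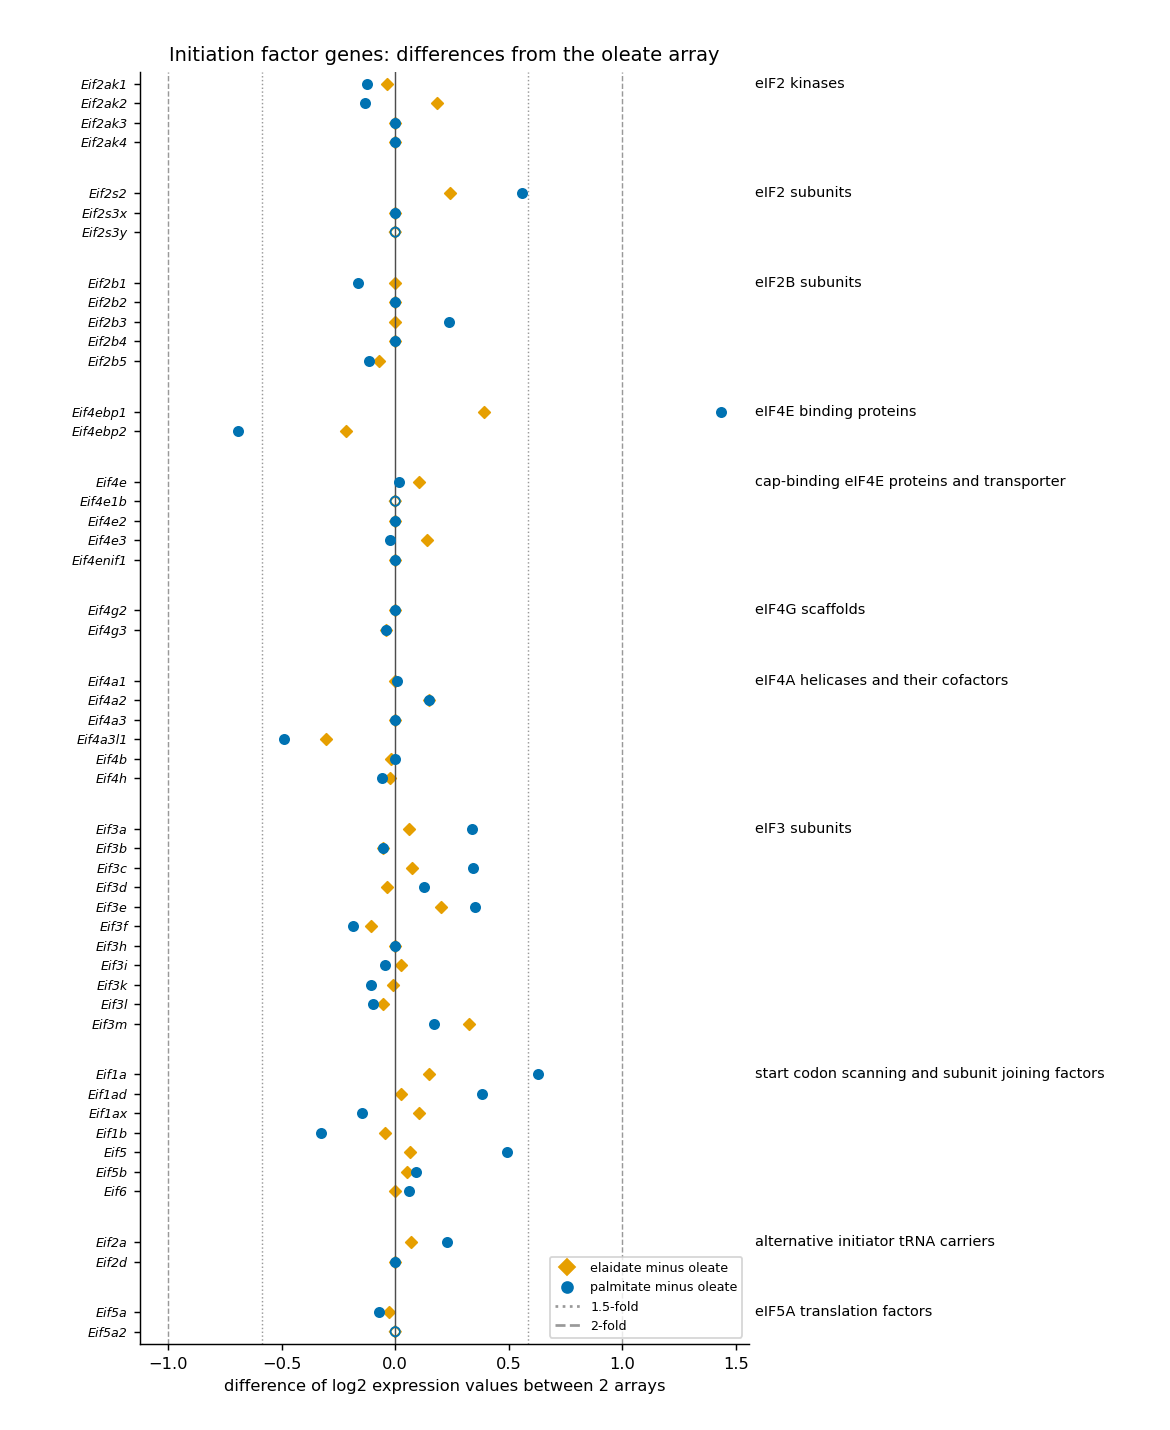
Difference of the log2 expression value from the oleate array for each of the 49 initiation factor genes, grouped by role; diamonds are elaidate minus oleate, circles palmitate minus oleate, open symbols genes below the filter, and dotted and dashed lines the 1.5-fold and 2-fold limits. Eif4ebp1 at 1.43 is the only circle beyond a dashed line, and Eif4ebp2 at -0.69 and Eif1a at 0.63 are the others beyond a dotted line.

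Over the 46 genes the standard deviation of palmitate minus oleate was 0.32, beside 0.38 over all genes past the filter. It was 0.24 beside 0.33 for palmitate minus elaidate and 0.12 beside 0.13 for elaidate minus oleate. The median size of the difference, taken without its sign, was in contrast larger for the initiation genes: 0.102 beside 0.077 for palmitate minus oleate, 0.074 beside 0.065 for palmitate minus elaidate and 0.037 beside 0.012 for elaidate minus oleate. These are spreads over genes, not errors. Identical values on all 3 arrays, to within 1e-06, were found for 11 of the 46 genes (23.9%) and for 27.5% of all genes past the filter. Such a gene is listed as equal and no more is read from it. Other genes had identical values on 2 of the arrays. For elaidate minus oleate, 30.4% of the 46 genes were equal, beside 44.1% of all genes. For palmitate minus elaidate these shares were 30.4% and 34.2%. No more is read from those ties either, and the medians of 0.00 given above fall among equal values.

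**Figure D2:**
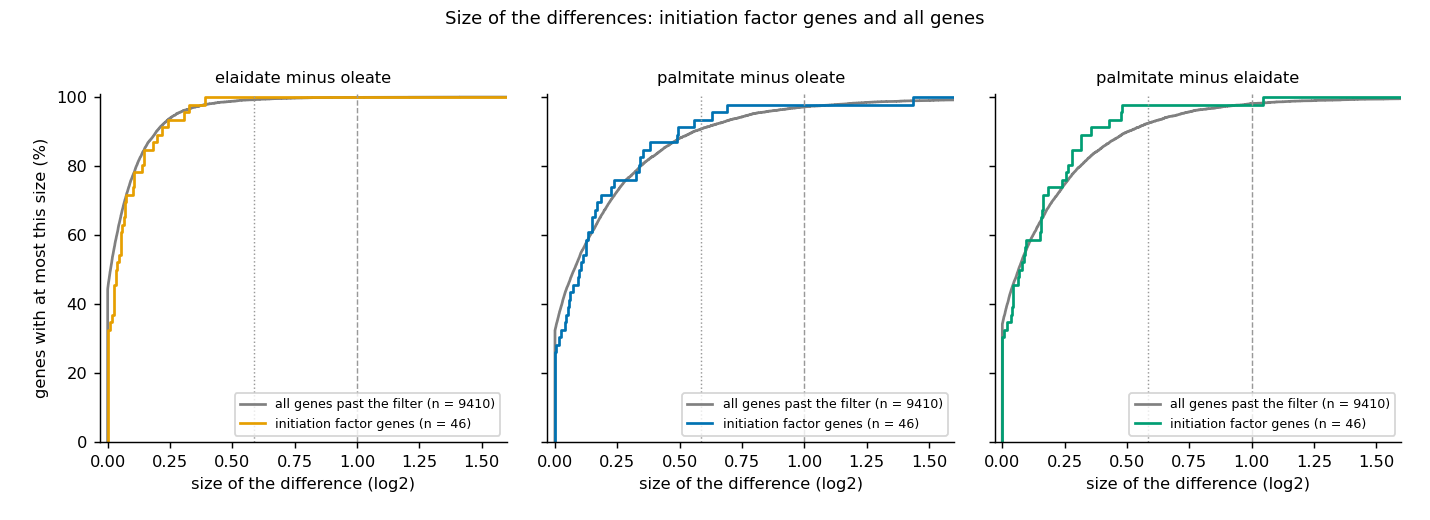
Cumulative share of genes (vertical axis, percent) whose difference between 2 arrays has at most the size on the horizontal axis (log2), for the 46 initiation factor genes (coloured) and all 9410 genes past the filter (grey), in each comparison; dotted and dashed lines are 1.5-fold and 2-fold. At size 0 the coloured step lies below the grey one in each panel, at 30.4% beside 44.1% for elaidate minus oleate. In both palmitate panels the coloured step lies above the grey one at 1.5-fold.

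The eIF4E binding proteins, which keep eIF4E from eIF4G, held the highest and the lowest palmitate minus oleate difference of the 49 genes. Eif4ebp1, which encodes 4E-BP1, stood at 7.79 with oleate, 8.18 with elaidate and 9.22 with palmitate. The palmitate array was high and elaidate lay nearer to oleate. The differences were 1.43 for palmitate minus oleate (2.70-fold), 1.04 for palmitate minus elaidate (2.06-fold) and 0.39 for elaidate minus oleate (1.31-fold). Among the 9410 genes Eif4ebp1 had rank 67 from the highest for palmitate minus oleate, rank 90 for palmitate minus elaidate and rank 172 for elaidate minus oleate. Eif4ebp2, the gene of the related 4E-BP2, stood at 7.50, 7.28 and 6.81 in the same order of arrays. Here the palmitate array was the low one, 1.61-fold below oleate at -0.69 and -0.47 from elaidate, and elaidate differed from oleate by -0.22. Its rank from the lowest was 306 for palmitate minus oleate. The third family member, Eif4ebp3, shares its probe set with Ankhd1, was equal there at 5.39 on all arrays and is not counted. The cis and trans isomers thus differed by 0.39 and -0.22 for these 2 genes, both below 1.5-fold.

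**Figure D3:**
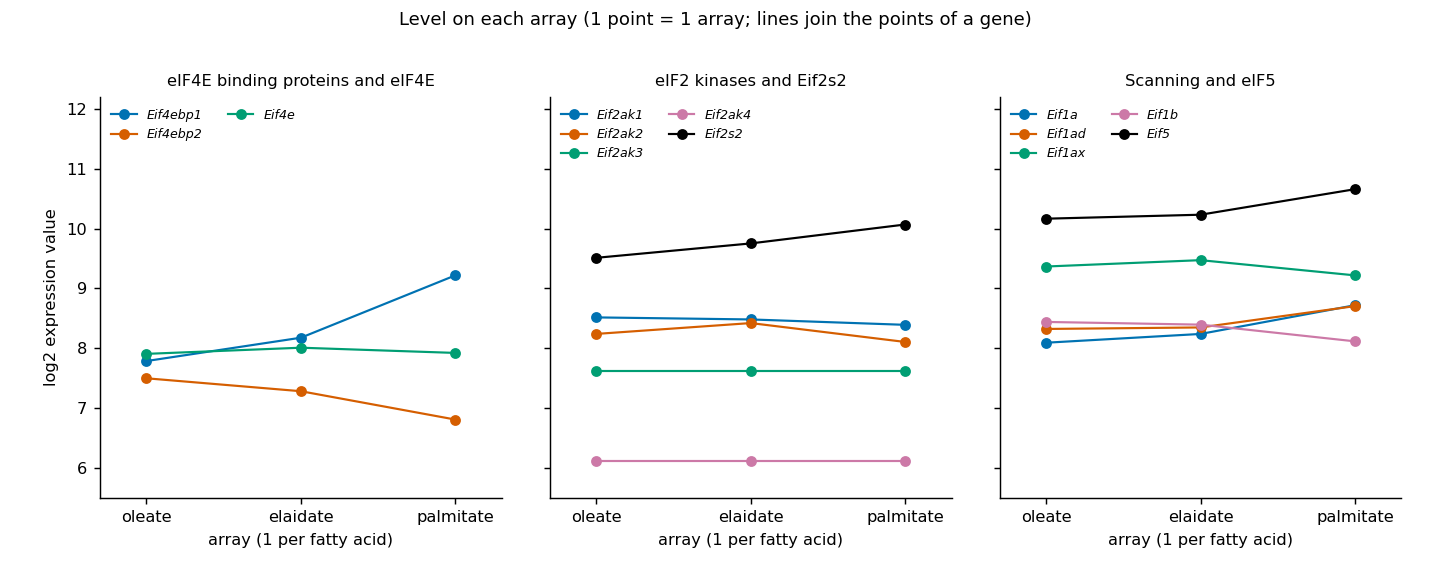
Log2 expression value (vertical axis) on the oleate, elaidate and palmitate arrays, 1 point per array, for the eIF4E binding proteins with Eif4e (left), the eIF2 kinases with Eif2s2 (middle) and scanning factors with Eif5 (right); lines join the points of a gene to guide the eye, and heights of different genes are not comparable. Eif4ebp1 ends at 9.22 and Eif4ebp2 at 6.81 on the palmitate array, while Eif2ak3 and Eif2ak4 are flat.

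Their target differed less between the arrays. Eif4e, the cap-binding protein itself, had means of 7.91 on oleate, 8.01 on elaidate and 7.92 on palmitate over 2 probe sets of unlike level. Its palmitate minus oleate difference was 0.02. Of its paralogs, Eif4e3, an atypical cap-binding protein, stood at 7.63, 7.77 and 7.61, and Eif4e2, which encodes the repressive cap-binding protein 4EHP, was equal at 9.08. Eif4enif1, the transporter that carries eIF4E into the nucleus, was equal at 5.96, and Eif4e1b, an oocyte form, was below the filter.

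Of the other parts of eIF4F, none of the genes measured reached 1.5-fold. Eif4g1, the main scaffold, was not analysed here. The paralog Eif4g2, whose product lacks the eIF4E binding site, was listed as equal at 11.52, and Eif4g3, a canonical eIF4G paralog, stood at 8.99 on oleate and at 8.95 on the other arrays. The helicase gene Eif4a1 stood at 11.70, 11.70 and 11.71 over 3 probe sets. Its paralog Eif4a2 was higher by 0.15 on both the elaidate and the palmitate array than on oleate, at 8.59, 8.73 and 8.73. Eif4a3, a helicase of the exon junction complex, was equal at 8.87. Of the helicase cofactors, Eif4b stood at 10.37, 10.35 and 10.37 and Eif4h at 10.05, 10.02 and 9.99. The most negative difference of the helicase group was that of Eif4a3l1, a copy of Eif4a3, at 4.54, 4.23 and 4.05, or -0.49 for palmitate minus oleate and -0.31 for elaidate minus oleate, the lowest of the 49 genes in the latter comparison. That gene lies just above the filter and is nearly a copy of an expressed gene, so its value is uncertain.

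Of the eIF2 kinases, which set the integrated stress response in motion, 2 had slightly lower values on the palmitate array than on oleate and 2 were listed as equal. Eif2ak1 (HRI, the kinase of haem lack and mitochondrial stress) stood at 8.52 on oleate, 8.48 on elaidate and 8.39 on palmitate. Eif2ak2 (PKR, the kinase of double-stranded RNA and an interferon-induced gene) stood at 8.24, 8.42 and 8.10; it was highest on the elaidate array, by 0.18 over oleate and by 0.32 over palmitate. Eif2ak3 (PERK, the kinase of the endoplasmic reticulum) was equal at 7.62 and Eif2ak4 (GCN2, the kinase that senses uncharged tRNA) equal at 6.11. None of the 4 kinase genes reached 1.5-fold in any comparison, and for the 2 with identical values nothing more is read from that.

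Their substrate is the trimeric eIF2. Eif2s2, its beta subunit, was measured by 2 probe sets, with means of 9.51 on oleate, 9.75 on elaidate and 10.07 on palmitate. It was 1.47-fold higher on palmitate than on oleate (0.56), just below the 1.5-fold limit, by 0.32 higher than on elaidate, and elaidate was 0.24 above oleate. Its probe sets gave 0.45 and 0.66 for palmitate minus oleate, on either side of that limit. Eif2s3x, the X-linked gamma subunit, was equal at 11.07, and Eif2s3y, its Y-linked copy, was below the filter. The gene of the alpha subunit, which carries the phosphorylated serine, was not analysed here.

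The 5 subunits of eIF2B, the exchange factor that reloads eIF2 with GTP, differed little: the values of each subunit on the 3 arrays lay within 0.24 of each other. Eif2b3, of the catalytic part, stood at 8.47, 8.47 and 8.71, the 1 subunit that was higher on palmitate. Eif2b1, of the regulatory part, stood at 7.52, 7.52 and 7.35, and Eif2b5, the catalytic subunit, at 7.73, 7.66 and 7.62. Eif2b2 at 7.28 and Eif2b4 at 6.30, both of the regulatory part, were equal on all arrays. Of the proteins that can bring a tRNA to the ribosome without eIF2, Eif2a stood at 9.13, 9.20 and 9.36, while Eif2d was equal at 5.23.

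Among the factors of start codon scanning and subunit joining, Eif1a was the 1 gene past 1.5-fold. Eif1a, which encodes a form of eIF1A that opens the small subunit for scanning, stood at 8.09 on oleate, 8.24 on elaidate and 8.72 on palmitate. The palmitate array was high, by 0.63 over oleate (1.55-fold) and 0.48 over elaidate. The X-linked paralog Eif1ax was the other way round, at 9.37, 9.47 and 9.22, or -0.15 for palmitate minus oleate. Eif5, the GTPase-activating protein of eIF2, stood at 10.17, 10.23 and 10.66, a difference of 0.49 from oleate and 0.43 from elaidate. Eif1ad, whose product resembles eIF1A and acts in ribosome maturation, stood at 8.32, 8.35 and 8.71. Eif1b, a paralog of eIF1, had the most negative palmitate minus oleate difference of these factors, -0.32, at 8.44, 8.39 and 8.12. Eif5b, the GTPase of subunit joining, stood at 8.96, 9.01 and 9.05, and Eif6, which keeps the large subunit free, at 9.54, 9.54 and 9.61. For Eif1a, Eif5 and Eif1ad the elaidate value lay within 0.15 of oleate.

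The eIF3 complex, the scaffold between the small subunit and eIF4G, had members that were higher and members that were lower on the palmitate array. Of its 11 genes 5 (45.5%) were higher than on oleate, 5 (45.5%) lower and 1 (9.09%) equal. Over all genes past the filter these shares were 30.9%, 36.8% and 32.3%. None of the 11 reached 1.5-fold. Eif3e, at 10.10 on oleate, 10.30 on elaidate and 10.45 on palmitate, had a palmitate minus oleate difference of 0.35. For Eif3c and Eif3a, of the core of the complex, it was 0.34 each, with Eif3a at 10.79, 10.85 and 11.13. The Eif3c value is a mean of probe sets that disagree, as given below, so these 3 genes have no order. Eif3f had the most negative difference, -0.18, at 9.85, 9.75 and 9.67. The remaining lower members were Eif3k at -0.11, Eif3l at -0.10, Eif3b at -0.05 and Eif3i at -0.04, and Eif3d differed by 0.13. Eif3h was equal at 8.80. Eif3m had its highest value on elaidate, at 8.65, 8.97 and 8.82, 0.32 over oleate, which is rank 249 from the highest in that comparison. The translation factor eIF5A, first named for initiation and known for its role in elongation, had little difference, with Eif5a at 10.50, 10.48 and 10.43.

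Of the 49 genes, 9 had several probe sets, and these did not always give the same difference. For Eif3c they gave 0.55, 0.47 and 0.00 for palmitate minus oleate, where the probe set at 0.00 had a log2 value of 4.33 on every array. For Eif3m they gave 0.13 and 0.21, and 0.43 and 0.22 for elaidate minus oleate. For Eif5a they gave -0.03 and -0.12, for Eif4e 0.03 and 0.00. The Eif4e probe sets stood at 10.02 and 5.80 on the oleate array, so their mean lies near neither. For elaidate minus oleate they gave 0.03 and 0.18, in the same order. Unlike levels were also averaged for Eif3h (11.33 and 6.27) and Eif4enif1 (7.53 and 4.39), each equal on all arrays. The single probe set of Eif1a gave 0.63, while 2 probe sets that are annotated to Eif1a together with near copies of it, and do not count here, gave 0.78 and 0.81. Probes shared by near-identical copies cannot part them, so the value of Eif1a is uncertain as to which copy it measures.

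**Figure D4:**
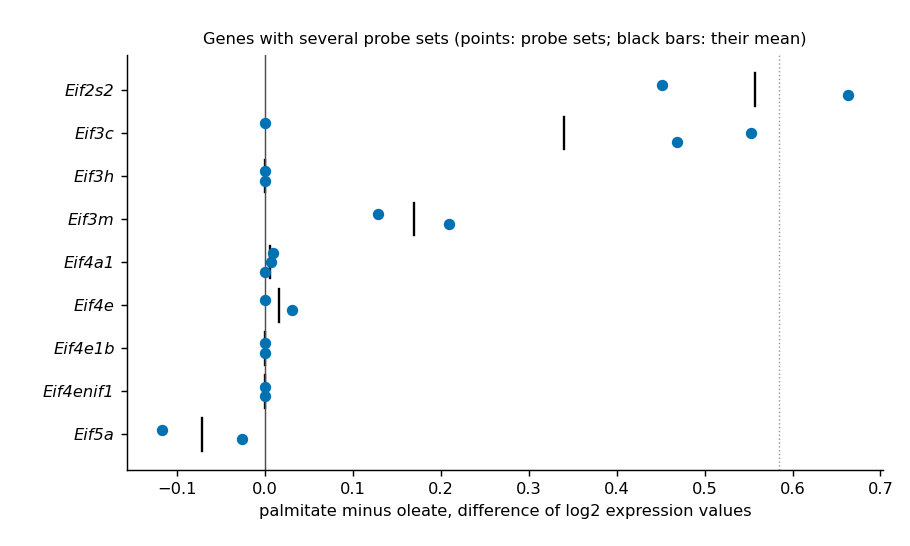
Palmitate minus oleate difference (horizontal axis, log2) of each probe set (blue points) and their mean (black bar) for the 9 initiation factor genes with several probe sets; the dotted line is 1.5-fold. The Eif2s2 probe sets at 0.45 and 0.66 lie on either side of the 1.5-fold line, and 1 of the Eif3c probe sets lies at 0.00 apart from the others.

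Promoter sequences are shown for 2 genes with a positive palmitate minus oleate difference, Eif2s2 at 0.56 and Eif5 at 0.49, and 2 with a negative one, Eif4ebp2 at -0.69 and Eif1b at -0.32, of which only Eif4ebp2 is past 1.5-fold, so that the differences can be set beside the letters before the start site. They are the 250 bases before the annotated start, from RefSeq on mouse build GRCm38.p6, 5′ to 3′ on the strand of the gene. Capitals mark matches, on either strand, to TGATGNAA, the core of the element bound by ATF4 with C/EBP partners (CARE), to CACGTG, the E-box bound by MYC and related factors, or to CCGGAAG, a site of ETS factors; these 3 do not overlap in the windows shown.
Eif2s2 at chr2:154892907-154893156, minus strand: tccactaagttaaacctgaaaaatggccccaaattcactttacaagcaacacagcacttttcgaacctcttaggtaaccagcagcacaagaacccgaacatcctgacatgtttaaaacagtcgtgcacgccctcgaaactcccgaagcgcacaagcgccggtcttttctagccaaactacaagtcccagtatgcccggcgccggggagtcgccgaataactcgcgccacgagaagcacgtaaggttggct
Eif5 at chr12:111537851-111538100, plus strand: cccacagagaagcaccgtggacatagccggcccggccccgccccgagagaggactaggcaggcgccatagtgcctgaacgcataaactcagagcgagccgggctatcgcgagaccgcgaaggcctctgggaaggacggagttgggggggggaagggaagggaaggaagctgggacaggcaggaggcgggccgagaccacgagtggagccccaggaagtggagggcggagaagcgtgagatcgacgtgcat
Eif4ebp2 at chr10:61452670-61452919, minus strand: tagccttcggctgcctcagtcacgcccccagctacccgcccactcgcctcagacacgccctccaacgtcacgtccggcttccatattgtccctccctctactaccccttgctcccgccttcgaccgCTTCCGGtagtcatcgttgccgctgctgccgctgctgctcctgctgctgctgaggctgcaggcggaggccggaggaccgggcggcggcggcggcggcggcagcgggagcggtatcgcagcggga
Eif1b at chr9:120492356-120492605, plus strand: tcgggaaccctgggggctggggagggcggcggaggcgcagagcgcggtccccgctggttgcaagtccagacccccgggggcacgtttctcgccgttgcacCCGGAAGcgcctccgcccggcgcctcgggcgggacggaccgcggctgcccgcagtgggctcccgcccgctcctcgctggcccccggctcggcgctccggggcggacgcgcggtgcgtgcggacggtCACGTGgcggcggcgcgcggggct

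The windows of Eif2s2 and Eif5 held none of the 3 motifs, that of Eif4ebp2 held 1 ETS match and that of Eif1b held an ETS match and an E-box. Of the 39 initiation genes with a window, 1 held the CARE core, the equal gene Eif2s3x, which is 2.56% beside 3.91% of all 27025 genes with windows of this length. The E-box was in 8 of 39 (20.5%) beside 6.86% of all genes, and the ETS motif in 11 of 39 (28.2%) beside 7.83%. A gene could have several windows and was counted if any of them held the motif. The 39 initiation genes had 52 windows and the 27025 genes had 32851. The table of all genes includes noncoding ones, and the median share of G and C was 61.2% over the windows of initiation genes and 52.4% over all windows. The 8 genes with an E-box were Eif1b, Eif3f, Eif3k, Eif4a1, Eif4e, Eif4h, Eif5a and Eif5a2, and their palmitate minus oleate differences ran from -0.32 to 0.02. Those of the 11 genes with an ETS match ran from -0.69 to 0.38. A match here is only a run of letters, and the absence of one says nothing about binding. Eif4ebp1, Eif1a, Eif3e, Eif3h, Eif3i, Eif2b3, Eif4e3, Eif4e1b, Eif4g2 and Eif6 had no window.

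Genes that act on the initiation factors or follow them were then described from a list of 50, of which 48 were measured and 47 passed the filter. The largest differences were in genes listed for eIF2 phosphorylation and around mTORC1, and no cofactor of initiation passed 1.5-fold. For palmitate minus oleate 4 were at least 2-fold higher and none was 2-fold lower, beside 1.65% and 1.22% of all genes. At 1.5-fold 8 were higher and 1 was lower, or 17.0% and 2.13% of the 47, beside 4.57% and 4.73% of all genes. The median over the 47 was 0.00. Several of the list were known to be high on the palmitate array when it was drawn up. The shares of partners given here and below, in any comparison, are therefore no independent evidence of a direction.

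Ppp1r15a (GADD34), the stress-induced subunit that brings phosphatase to eIF2, stood at 5.01 on oleate, 5.04 on elaidate and 8.12 on palmitate. Its constitutive counterpart Ppp1r15b stood at 6.58, 6.54 and 6.61. Impact, whose product inhibits the kinase GCN2, stood at 7.57, 7.83 and 8.80, a difference of 1.24 from oleate and 0.98 from elaidate. Dnajc3 (P58IPK), a chaperone known as an inhibitor of PKR and PERK, stood at 9.23, 9.27 and 9.26. The 11 genes listed for eIF2 phosphorylation include Atf4, which acts downstream of it. Of these 11, 6 (54.5%) were higher on palmitate than on oleate and 5 (45.5%) lower, beside 30.9% and 36.8% of all genes. Their median was 0.02. The lower ones included the phosphatase catalytic subunits Ppp1ca at -0.37 and Ppp1cc at -0.29. Atf4, the transcription factor whose mRNA is translated when eIF2 is phosphorylated, stood at 8.34, 9.07 and 9.95, and differed by 0.73 between elaidate and oleate. Sesn2, at 0.63, was the other of the 2 partners (4.26% of the 47, beside 0.723% of all genes) past 1.5-fold higher on elaidate than on oleate.

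Among genes around mTORC1, which phosphorylates the 4E-BPs, Sesn2, an inhibitor of the complex under amino acid lack, stood at 6.65, 7.28 and 9.36. The kinase itself differed little, with Mtor at 7.76, 7.76 and 7.69. The partners that were past 1.5-fold but not 2-fold are named here after their values were seen. Rheb, the GTPase that activates mTORC1, was 0.74 higher on palmitate than on oleate. Ddit4 (REDD1), an inhibitor of mTORC1, was 0.68 higher, at the lower level of 5.22, 5.23 and 5.90. The kinases that phosphorylate eIF4E went opposite ways, with Mknk1 at 7.88, 7.61 and 8.57 and Mknk2 at 7.54, 7.31 and 6.75, so that palmitate minus oleate was 0.70 and -0.80. Eef2k, which phosphorylates and slows the elongation factor eEF2, was 0.68 higher on palmitate than on oleate. Its values were 4.57, 4.55 and 5.25, so it lay near the filter of 4.14 on the oleate and elaidate arrays. None of the 13 initiation cofactors passed 1.5-fold, and the highest of them was Denr, which acts in reinitiation, at 0.45. For palmitate minus elaidate, 7 partners (14.9%) were past 1.5-fold higher and none was lower, beside 3.18% and 4.43% of all genes.

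**Figure D5:**
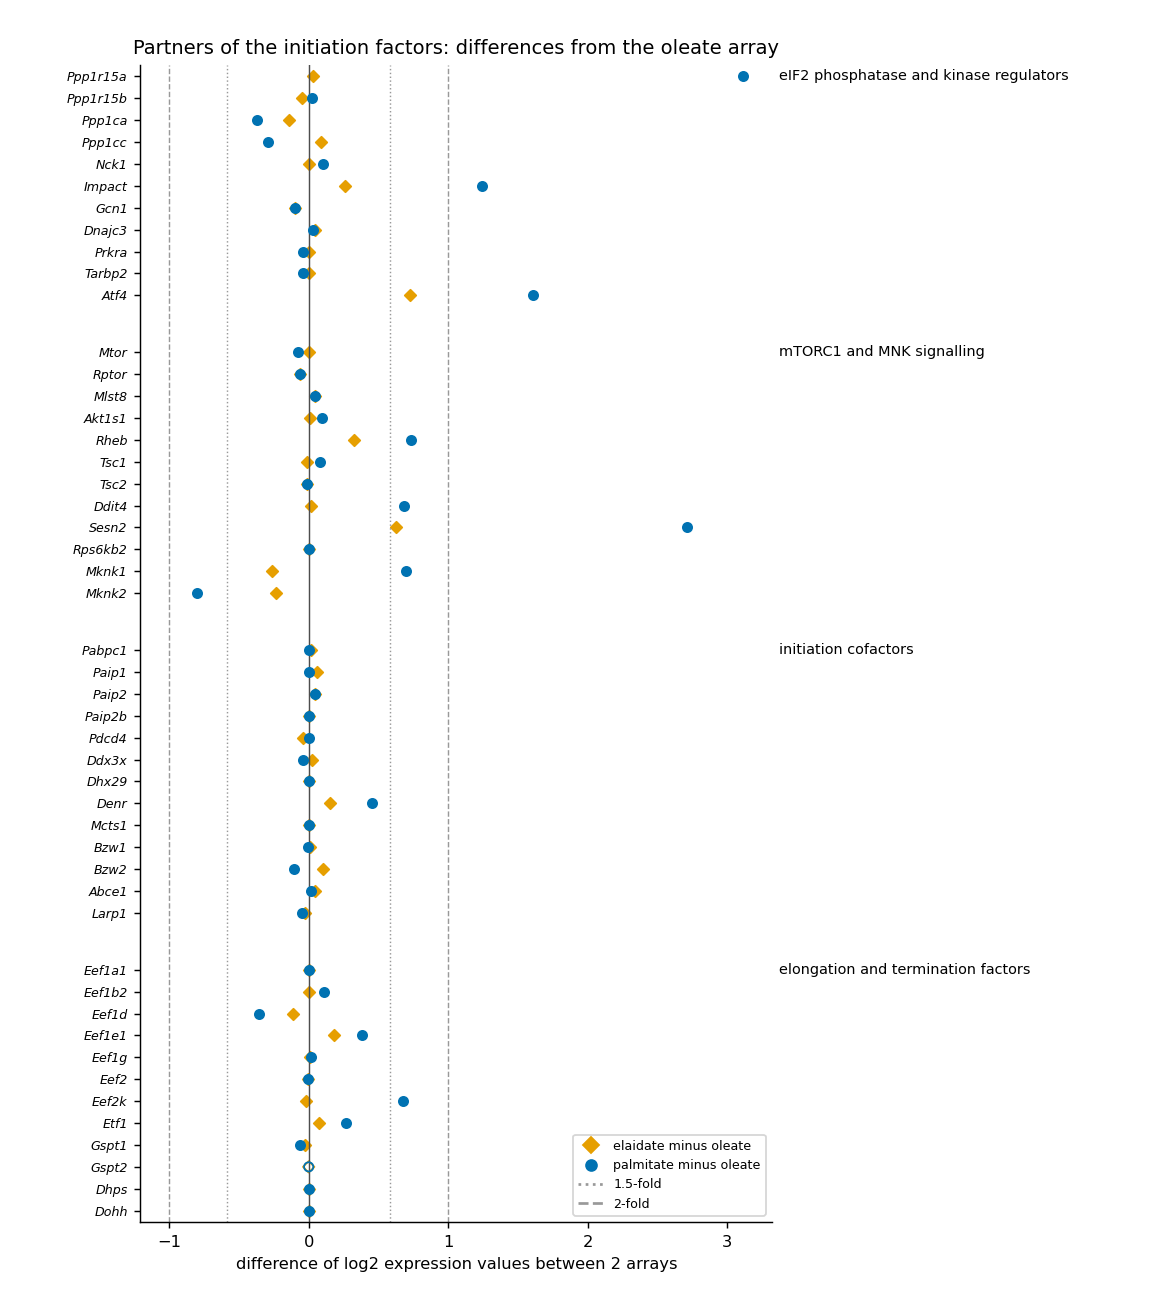
Difference of the log2 expression value from the oleate array for the 48 measured partners of the initiation factors, grouped by role; diamonds are elaidate minus oleate, circles palmitate minus oleate, open symbols genes below the filter, and dotted and dashed lines the 1.5-fold and 2-fold limits. Ppp1r15a at 3.12 and Sesn2 at 2.71 lie farthest to the right, Mknk1 and Mknk2 lie on opposite sides, and the initiation cofactors lie between -0.10 and 0.45.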

How the data were processed

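Total RNA of 3 cultures of RAW264.7 cells was hybridised to Affymetrix arrays, 1 per fatty acid. The authors deposited 1 log2 expression value per probe set. RMA is named in the submitters' processing notes, with no version, and no source used here names a genome build for the array values. Arrays have no depth to report, and their number limits the precision.

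Of 35556 probe sets, 21218 had 1 gene symbol in the platform annotation, 1881 had several and 12457 were unnamed there; only the first kind was used. Gene values, the filter, differences and counts were computed from the deposited values with Python 3.11.15, numpy 2.4.6 and pandas 2.3.3, and figures with matplotlib 3.10.9. No statistical test was possible. The alternatives were no filter, a filter at the 75th percentile, centring of arrays on their medians, cyclic loess (limma 3.58.1 in R 4.3.3, span 0.7, 3 iterations) and the probe set with the highest mean. The counting steps were tested on simulated data.

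Named with values were members past 1.5-fold in any comparison, all eIF2 kinases, eIF2 and eIF2B subunits and eIF4E binding proteins, the highest and lowest member of each other role for palmitate minus oleate, partners past 2-fold, and Ppp1r15a, Ppp1r15b, Atf4 and Dnajc3; further genes were named after their values were seen. The members and lists were chosen with earlier results of these data known. The 49 genes matched RefSeq by gene identifier.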

Additional observations from a re-analysis of the deposited data

How the results depend on the processing

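The counts at both limits and the medians, 21 results in all, were recomputed under 5 alternatives. Of these 105 values, 102 kept a median within 0.1 or a count within 1.5 times. The 3 others arose with the filter at the 75th percentile, which keeps fewer genes. For palmitate minus oleate, 0 initiation genes were at least 1.5-fold lower (Eif4ebp2 no longer entered). Partners at least 1.5-fold higher numbered 5 of 29 for palmitate minus oleate and 4 of 29 for palmitate minus elaidate. In both comparisons Ppp1r15a, Ddit4 and Eef2k no longer entered, with means over the arrays of 6.05, 5.45 and 4.79. Among 252 values of the 28 named initiation genes, 1 crossed the 1.5-fold limit: Eif2s2, at 0.66 for palmitate minus oleate with the probe set of highest mean, which takes the count of genes at least 1.5-fold higher from 2 to 3. No value past that limit changed sign. Centring, on the medians over genes past the filter, moved differences by at most 0.04 and cyclic loess by less than 0.01. The array medians over all probe sets, which the centring did not use, were also close, at 3.57 for oleate, 3.58 for elaidate and 3.61 for palmitate. Both settings are therefore a weak check. Dropping the filter adds to either list only genes that are equal on all arrays, so it could not change a count. No paired analysis was possible because each fatty acid has 1 array. Leaving out an array removes the comparisons it enters and alters no other deposited value. Without replicate arrays no difference here can be set against the error of the assay.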

Other observations

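Of the probe sets annotated to an initiation factor together with other genes, 9 in all, those of Eif1a and Eif4ebp3 are given above and the others here; they enter no count. The probe sets shared by Eif3j1 and Eif3j2, copies of an eIF3 subunit gene, differed by 0.35 and 0.31 between palmitate and oleate, and by 0.09 and 0.07 between elaidate and oleate. Those shared by Eif4a3 and Eif4a3l1 differed by -0.02 and -0.03 between palmitate and oleate, whereas the probe set of Eif4a3l1 alone gave -0.49. The probe set shared by Eif4a2 and Rfc4, a subunit of a DNA replication factor, gave -0.21, where that of Eif4a2 alone gave 0.15. The probe set shared by Eif5b and Rev1 was equal on the 3 arrays.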
